A study of Homo sapiens with 4 samples.

Results

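The 6 genes described here are IRF4, TNFRSF17, TNFRSF13B, SDC1, LY9 and TXNDC5, which mark plasma cells or serve their survival and secretion. They are 6 of the 684 genes in the gene table that the authors deposited, and 3 of the 1040 transcripts in the matching transcript table belong to them. Membership was by symbol, and the symbols were chosen by the authors' log2 fold changes and Q values for this same comparison, so the values of the 6 genes are given as a description and support no test. A gene or transcript is named as called where the authors' Q value, a significance value adjusted for multiple testing, is under 0.05, which held for every entry of both tables.

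RNA was sequenced from LP-1, an established human multiple myeloma line whose cell type the labels give as B lymphoblast. One group was cells given a lentiviral guide RNA construct for HRP2 knockdown (2 libraries) and the other was cells given a non-target control construct (2 libraries), and both were grown in the same medium. The labels do not say whether the guide edited or repressed the gene, how many guides were used, or whether the 2 libraries in each group were separate cultures. The Q values may therefore reflect only technical spread. HDGFL2, the gene of HRP2, was at 0.388 of its control level in the authors' deposited table (log2 -1.37, Q = 2.99e-13). Each value below is the authors' log2 ratio of knockdown to control, with no standard error. Levels in single libraries were not used here, so neither the spread within a group nor the sequencing depth behind a value is known.

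Plasma cells are the antibody-secreting end stage of the B lineage, and myeloma cells keep much of their program. IRF4 is a transcription factor that drives B cells into this state and that myeloma cells need to survive. BCMA (TNFRSF17) and TACI (TNFRSF13B) are related receptors of the TNF receptor superfamily that bind the ligands APRIL and BAFF and pass a survival signal through TRAF adaptors to NF-kB, and BCMA is the target of several myeloma therapies. SDC1 encodes syndecan-1 (CD138), a heparan sulfate proteoglycan used to identify plasma cells, LY9 encodes CD229, a SLAM family receptor that is abundant on myeloma cells, and TXNDC5 is a protein disulfide isomerase that helps secreted proteins fold in the endoplasmic reticulum.

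All 6 genes were lower in the knockdown. In the authors' deposited table their log2 fold changes ran from -1.29 for LY9 to -0.45 for SDC1, with a median of -0.68. For comparison, the median was -0.78 over the 323 lower called genes and 0.47 over all 684 called genes, of which 47.2% were lower. Among the 19889 listed mRNA genes with a symbol, 3.42% were called and 1.61% were called lower. The number of genes that the authors tested is not given in the sources used here, and the listed genes include ones that LP-1 cells may not express, so these shares are the background per listed gene. Since the symbols were picked for being called, nothing is read from 6 of 6 against that background.

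**Figure D1:**
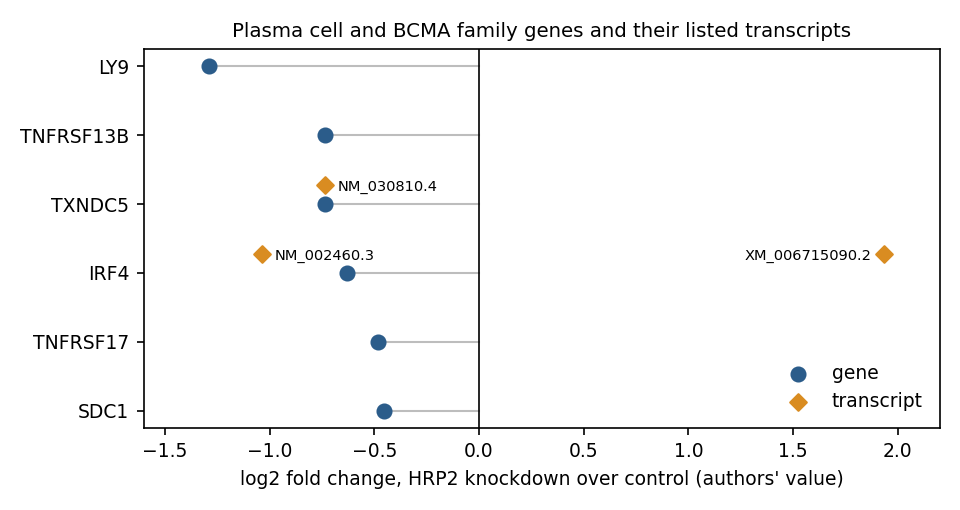
The authors' log2 fold change of HRP2 knockdown over control (horizontal axis) for the 6 genes (blue points) and for the transcripts of these genes in the transcript table (orange diamonds). The 6 gene values lie between -1.29 and -0.45, the TXNDC5 transcript lies at its gene value, and the IRF4 transcripts lie at -1.04 and 1.93, on opposite sides of 0.

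The start regions of the genes are shown because they differ in base composition and motif content. Promoter windows from RefSeq (build GRCh38.p14, which is not the hg19 build named in the submitters' processing notes) matched 4 of the 6 genes, and TNFRSF17 and LY9 were not among them. Each line gives the 250 bases before the outermost annotated start, 5′ to 3′, and capitals mark any of 5 motifs on either strand: TATAAA (the TATA box), GGGCGG (the GC box of SP family factors), CACGTG (an E-box), GGAAGT (a core of ETS family sites) and GAAACT (a form of the core bound by IRF factors). Overlapping matches, within a motif or between motifs, were each counted.

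IRF4 (chr6:391502-391751, plus strand): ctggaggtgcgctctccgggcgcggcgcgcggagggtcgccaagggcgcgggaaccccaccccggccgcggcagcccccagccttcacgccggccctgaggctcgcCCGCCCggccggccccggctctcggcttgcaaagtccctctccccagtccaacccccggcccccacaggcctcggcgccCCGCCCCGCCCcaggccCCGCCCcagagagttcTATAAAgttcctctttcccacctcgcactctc

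TNFRSF13B (chr17:16972119-16972368, minus strand): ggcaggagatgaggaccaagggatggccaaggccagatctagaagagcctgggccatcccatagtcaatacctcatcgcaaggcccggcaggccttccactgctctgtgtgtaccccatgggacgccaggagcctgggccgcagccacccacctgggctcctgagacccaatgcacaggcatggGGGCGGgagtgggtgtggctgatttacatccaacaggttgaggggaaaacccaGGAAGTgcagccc

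SDC1 (chr2:20225476-20225725, minus strand): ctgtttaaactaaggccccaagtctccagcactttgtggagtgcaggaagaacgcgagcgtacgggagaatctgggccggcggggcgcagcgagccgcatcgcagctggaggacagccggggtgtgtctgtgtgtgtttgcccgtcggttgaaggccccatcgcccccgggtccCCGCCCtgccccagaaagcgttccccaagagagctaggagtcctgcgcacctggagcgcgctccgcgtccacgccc

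TXNDC5 (chr6:7910789-7911038, minus strand): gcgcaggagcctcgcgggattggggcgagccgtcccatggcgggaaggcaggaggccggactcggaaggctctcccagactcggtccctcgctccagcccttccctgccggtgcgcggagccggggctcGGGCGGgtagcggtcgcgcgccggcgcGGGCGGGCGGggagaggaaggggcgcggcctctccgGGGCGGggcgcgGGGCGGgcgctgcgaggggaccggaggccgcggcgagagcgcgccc

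The TXNDC5 window had the highest GC content of these 4, at 80.8%, with 40 CpG dinucleotides and 5 GC boxes. The IRF4 window, at 76.0% with 28 CpG dinucleotides, held 4 GC boxes and was the only one of the 4 with TATAAA, which is found in 10.7% of all 35116 windows of this length. The SDC1 window (66.4%, 23 CpG dinucleotides) held 1 GC box. The TNFRSF13B window was the poorest in CpG, with 5 dinucleotides at a GC content of 62.0%, and held 1 GC box and the only GGAAGT. The median window of the whole table had a GC content of 58.0% and 11 CpG dinucleotides. These medians were 66.4% and 21 for windows of lower called genes, and 65.2% and 22 for those of higher called genes. The SDC1 window thus lay near the medians of called genes, and the TNFRSF13B window below them. A GC box was present in 42.6% of all windows, in 64.5% of the windows of lower called genes and in 64.4% of those of higher called genes, and GGAAGT in 19.5%, 19.0% and 23.4%. CACGTG (6.34% of all windows) and GAAACT (12.6%) were in none of the 4 sequences. Thus the 4 genes shared a GC box, which was as common in windows of higher as of lower called genes.

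IRF4 (gene ID 3662) was at 0.646 of its control level in the authors' deposited table (log2 -0.63, Q = 0.00323). Ordered by size, it was at position 230 of the 323 lower genes, and ordered by Q value at position 160 of all 684. At the transcript level the gene split. The authors' deposited transcript table gave NM_002460.3, a curated RefSeq transcript, at -1.04 (0.488 of its control level, Q = 0.0108). It gave XM_006715090.2, a model predicted by RefSeq from the genome, at 1.93 (3.82 times its control level, Q = 0.000426). NM_002460.3 thus went the way of the gene (transcript minus gene, -0.41 on the log2 scale). The predicted transcript went the opposite way, 2.97 log2 units above NM_002460.3.

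Transcripts on opposite sides of 0 were frequent among genes with several called transcripts. They were found for 89 of the 136 symbols with at least 2 called transcripts. Of the 9 such symbols whose called transcripts all stayed under 6 in absolute log2 value in the authors' deposited transcript table, 4 were split (ARHGEF12, IRF4, LRP12 and PRC1). Of these 4, IRF4 alone was also in the gene table. Only 217 of all 1040 called transcripts were under 6 in absolute log2 value, so larger values were the more common ones. Without levels, it is not known whether those come from a transcript near 0 in a group. Of the 81 transcripts under 6 whose gene was called, 2 went against their gene, and the median distance between transcript and gene was 0.16 on the log2 scale. RefSeq holds 5 transcripts of IRF4, and the other 3 were not in the transcript table. How reads common to several IRF4 transcripts were divided is not given in the sources used here, and its part in the split was not tested.

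IRF4 was the single called gene on a list of 16 B lineage and plasma cell factors (6.25%, against 3.42% of listed genes). The list also holds PRDM1 (which encodes BLIMP-1), XBP1, POU2AF1, IKZF1, IKZF3 and MYC. IRF4 was picked on this comparison, and at that background few calls are expected among so few genes. The factors not called have no value here, so they are not shown to be unchanged. IKZF1, though not called as a gene, had 1 transcript at 9.43 (Q = 0.00077) in the authors' deposited transcript table. Of the 9 IRF family genes 3 were called (33.3%, against 3.42% of listed genes), all lower. IRF4 is among these 3 and was picked on this comparison, so the count is not independent evidence of a direction. IRF7, an inducer of type I interferon, was at -1.14 (Q = 0.0288) and IRF1, an interferon-induced activator, at -0.58 (Q = 0.0432) in the authors' deposited gene table. IRF2 was not called as a gene, and 2 of its predicted transcripts were at -2.11 and 23.11 in the transcript table of the authors.

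Genes described elsewhere as targets of IRF4 in myeloma went both ways. Besides IRF4 itself, 2 of the 10 on that list were called. SUB1, a transcriptional coactivator, was at -0.45 (Q = 0.0158) and SQLE, the squalene epoxidase of sterol synthesis, at 0.84 (Q = 0.000235) in the authors' deposited table. MYC, PRDM1, CDK6, SCD, KLF2, ELL2 and XBP1 were not in the gene table, although 1 predicted transcript of CDK6, a G1 kinase, was at -1.05 (Q = 0.0187) in the transcript table that the authors deposited. An uncalled gene has no value here, so it is not shown to be unchanged.

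Both BCMA and TACI were lower. TNFRSF17 (gene ID 608) was at 0.717 of its control level (log2 -0.48, Q = 0.0392) and TNFRSF13B (gene ID 23495) at 0.600 (log2 -0.74, Q = 0.0293), per the authors' deposited table. TNFRSF17 was among the smallest decreases, at position 310 of 323, and TNFRSF13B near the middle, at position 176. Both Q values lay in the upper part of the called range, at positions 585 and 499 of 684 from the smallest, where the median Q value was 0.0168. RefSeq holds 1 transcript for each gene, and neither was in the transcript table, so the 2 gene values have no transcript value beside them.

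The pathway around these receptors held little else. Of 27 genes for the BAFF and APRIL receptors, their ligands and their signalling, 3 were called (11.1%, against 3.42% of listed genes). All 3 were lower, their median being -0.51 on the log2 scale. TNFRSF17 and TNFRSF13B are 2 of these 3 and were picked on this comparison, so the count is not independent evidence of a direction. The third was RELB, an NF-kB subunit of the non-canonical arm, at -0.51 (Q = 0.0391) in the authors' deposited table. BAFF receptor (TNFRSF13C), APRIL (TNFSF13), BAFF (TNFSF13B), the TRAF adaptors, the kinase NIK (MAP3K14), the proteases that shed these receptors (the gamma-secretase subunits, which cleave BCMA, and ADAM10 and ADAM17) and MCL1 were not in the gene table. TRAF3, a brake on non-canonical NF-kB signalling, had 1 called transcript at 9.30 (Q = 0.00593) in the authors' deposited transcript table.

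The called genes of the TNF receptor superfamily went both ways. Of its 29 genes 5 were called (17.2%, against 3.42% of listed genes), 3 lower and 2 higher. TNFRSF10B, the TRAIL death receptor DR5, was lower at -0.92 (Q = 0.000895). TNFRSF1B, the second TNF receptor, was higher at 0.99 (Q = 0.00124) and FAS, another death receptor, at 0.51 (Q = 0.0375), all in the authors' deposited table. BCMA and TACI, which were picked on this comparison, are 2 of the 3 lower called genes, and their decreases were smaller than that of DR5. The genes of the family that were not called have no value here.

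SDC1 (gene ID 6382) had the smallest decrease of the 6. It was at 0.730 of its control level (log2 -0.45, Q = 0.0446) per the authors' deposited table, at position 314 of 323 lower genes and at position 649 of 684 by Q value, close to the 0.05 limit. None of its 5 RefSeq transcripts was in the transcript table. Of 27 syndecan genes and genes that build, edit or shed heparan sulfate chains, 1 other was called, XYLT1, the xylosyltransferase that starts the chains on the core protein, at -0.83 (Q = 0.00328) in the authors' deposited table. With SDC1 the called share of this list was 7.41%, against 3.42% of listed genes. Some genes on it that were not called as genes had called transcripts below 0. These were NDST1 at -21.55 (Q = 6.02e-06), SULF2 at -8.40 (Q = 0.0281) and 2 of NDST2 at -8.39 each (Q = 0.0421) in the authors' deposited transcript table. Values of such size were common among called transcripts, and they are not read as support for the gene values. NDST1 and NDST2 encode enzymes that sulfate the chains and SULF2 one that removes sulfate. The other syndecans, the chain polymerases EXT1 and EXT2, heparanase (HPSE) and MMP9, which shed or trim syndecan-1, were not in the gene table.

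LY9 (gene ID 4063) had the largest decrease and the smallest Q value of the 6 by a wide margin. In the authors' deposited table it was at 0.409 of its control level (log2 -1.29, Q = 2.7e-08), which put it at position 44 of the 323 lower genes and at position 14 of all 684 by Q value. For scale, the targeted HDGFL2 was at -1.37. None of the 17 RefSeq transcripts of LY9 was in the transcript table. Among the 11 genes of SLAM receptors and their adaptors 2 were called (18.2%, against 3.42% of listed genes), both lower. Besides LY9, which was picked on this comparison, this was CD48, the ligand of the SLAM receptor 2B4, at -0.69 (Q = 0.0273) in the authors' deposited table. SLAMF7, a myeloma antibody target whose gene lies between LY9 and CD48 in the same cluster of chromosome 1, was not in the gene table, and neither were SLAMF1, SLAMF6, CD84 and CD244.

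The surface antigens that mark plasma cells or myeloma cells were the list with the largest called share of the 10 related lists. Of its 18 genes 7 were called (38.9%, against 3.42% of listed genes), all lower, their median being -0.69 on the log2 scale. LY9, TNFRSF17 and SDC1 are 3 of these 7 and were picked on this comparison, and the list itself was drawn up with earlier results of these data known, so the count is not independent evidence of a direction. The other 4 were CD28, a costimulatory receptor that signals survival in myeloma cells, at -1.001 (Q = 5.77e-05), NCAM1 (CD56), an adhesion molecule often gained in myeloma, at -0.83 on the log2 scale (Q = 0.0281), CD48 as above, and ITGB7, an integrin chain used in homing, at -0.49 (Q = 0.00288) in the authors' deposited table. ITGB7 also had a called transcript, at -0.81 (Q = 0.00481) in the authors' deposited transcript table. CD38, SLAMF7, GPRC5D and FCRL5, which are all targets of myeloma drugs or trials, and CXCR4 and CD27 were not in the gene table.

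TXNDC5 (gene ID 81567) was at 0.601 of its control level (log2 -0.74, Q = 0.00469) per the authors' deposited table, at position 177 of the 323 lower genes. Its transcript NM_030810.4 had almost the same value, -0.73 (Q = 0.0222), in the authors' deposited transcript table, and the other of its 2 RefSeq transcripts was not there. Of the 31-base sequence words of its longest coding transcript, 89.6% also occur in BLOC1S5-TXNDC5, a readthrough locus, so how reads were split between these loci could change the value. For the other 5 genes this share was at most 0.64%.

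Further genes of disulfide bond formation and secretion were called along with it. Of 26 protein disulfide isomerases and their oxidases 4 were called (15.4%, against 3.42% of listed genes), 3 lower and 1 higher. TXNDC5 is 1 of the 3 lower and was picked on this comparison, so the count is not independent evidence of a direction. P4HB, the prototype isomerase, was at -0.56 (Q = 0.0026) and TXNDC11, a thioredoxin-domain protein of the endoplasmic reticulum, at -0.55 (Q = 0.00723), while ERO1A, the hypoxia-responsive oxidase that recharges P4HB, was higher at 0.58 (Q = 0.0236) in the authors' deposited table. Called transcripts of P4HB (-0.55, Q = 5.76e-07) and TXNDC11 (-0.49, Q = 0.0397) in the authors' deposited transcript table lay close to their gene values. Of 28 further secretory genes of plasma cells 3 were called (10.7%, against 3.42% of listed genes), all lower, with a median of -0.57. These were DNAJB9, a chaperone of the endoplasmic reticulum, at -1.28 (Q = 7.28e-07), SEC61A1, the channel of the translocon, at -0.57 (Q = 0.0119), and SSR3, a translocon-associated subunit, at -0.46 (Q = 0.048). JCHAIN, MZB1, SEC11C, HSPA5 and HSP90B1 were not in the gene table.

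**Figure D2:**
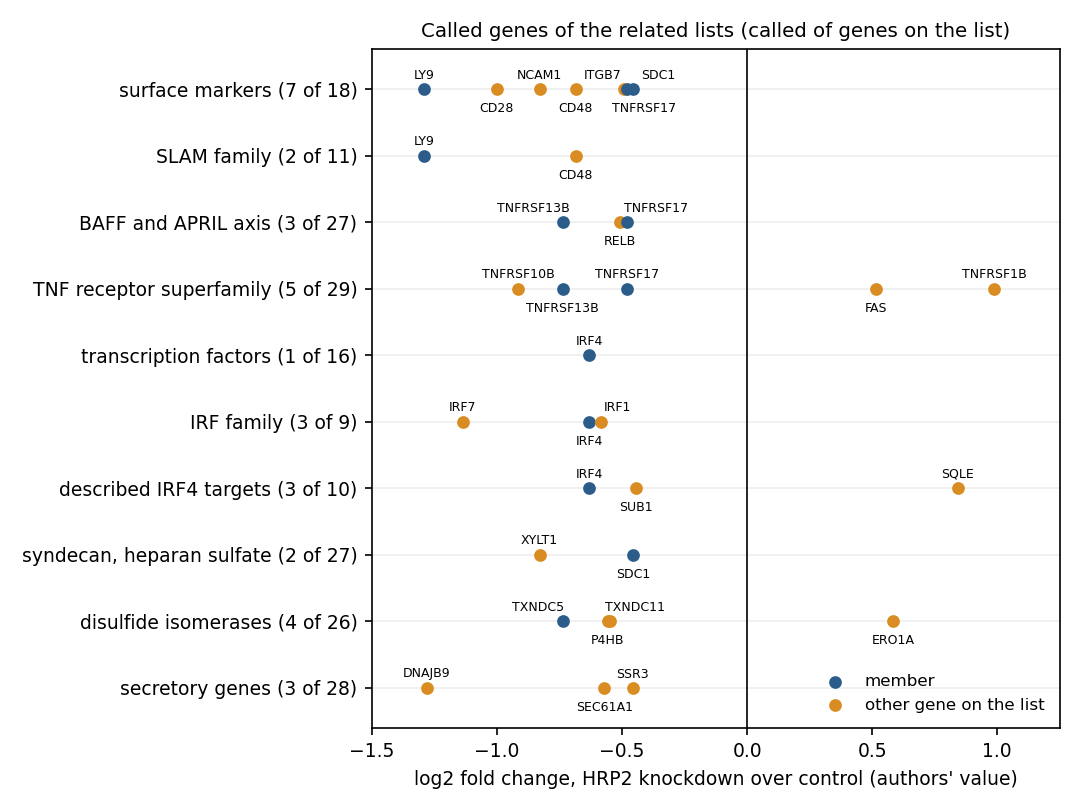
The authors' log2 fold change of HRP2 knockdown over control (horizontal axis) for the called genes of 10 lists related to the 6 genes (rows, with the number called and the number on the list); blue points are the 6 genes and orange points other genes. The surface marker row has 7 called genes, all below 0, whereas the TNF receptor superfamily row has 3 below 0 and 2 above, FAS and TNFRSF1B.

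Over the 10 related lists, which hold 178 genes besides the 6, another 19 genes were called, 15 lower and 4 higher. The higher ones were TNFRSF1B, FAS, SQLE and ERO1A. Beside this count stand a called share of 3.42% over listed genes and a share of 47.2% lower among all called genes. No test was made of it. The lists were drawn up with earlier results of these data known, so the count is not independent evidence of a direction. Markers of other cells that a culture might hold were counted the same way. None of the 69 genes on lists for earlier B cells, T and NK cells, myeloid cells, erythroid cells and platelets, and stromal and endothelial cells was in the gene table. At the background of 3.42% of listed genes few calls are expected among 69, so this absence says little. It also depends on how genes were placed, since CD28 and NCAM1 were counted on the surface marker list. From these 5 lists 2 transcripts were called, 1 of CIITA, the activator of MHC class II genes, at 5.91 (Q = 0.0282) and 1 of PECAM1, an adhesion molecule, at 8.64 (Q = 0.0261) in the authors' deposited transcript table. MHC class II genes, which B cells express before the plasma cell stage, were not on these lists, and 10 of them were called, all higher. How many class II genes were listed was not counted. No share therefore stands beside the 3.42% of all listed genes, and nothing is read from the count. The 10 called genes ran from 0.48 for HLA-DQA2 (Q = 0.0316) to 0.74 for HLA-DMA (Q = 0.00399) in the authors' deposited gene table, with HLA-DRA, the alpha chain of HLA-DR, at 0.50 (Q = 0.0119). These genes were added after their values were seen, and reads of the near-identical HLA-DRB and HLA-DQA copies may be split between them. Of 9 defining plasma cell markers, IRF4, SDC1 and TNFRSF17 are 3 of the 6 genes chosen on this comparison, and none of the other 6 markers was in the gene table, where the background was 3.42%. Without levels, it was not checked which of the markers the cells expressed.

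**Figure D3:**
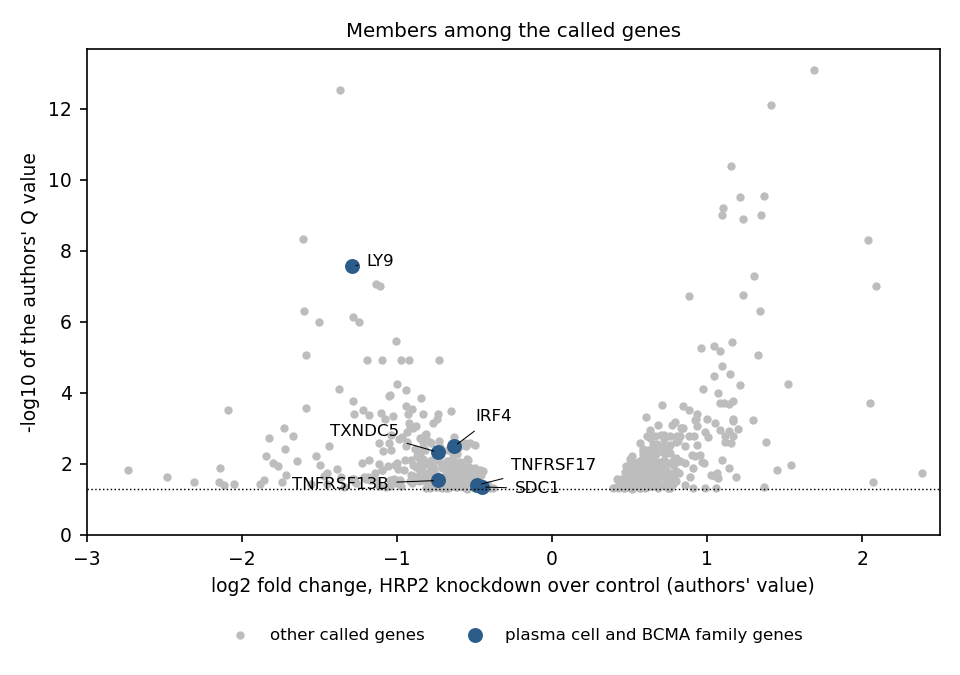
The authors' log2 fold change (horizontal axis) against -log10 of their Q value (vertical axis) for 675 called genes, with the 6 genes in blue; 9 genes outside the plotted range of -3 to 2.5 are left out, and the dotted line marks a Q value of 0.05. Of the 6 genes LY9 lies furthest left and highest, while SDC1 and TNFRSF17 sit just above the line.

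Direction among the called genes goes with base composition, so each gene was set beside called genes of similar GC content. Transcripts of lower called genes had a median GC content of 57.4%, against 46.7% for higher ones. TNFRSF17, at 43.0%, and IRF4, at 47.1%, are poor in GC, in the range where most called genes were higher. Of the 145 other called genes within 2.5 percentage points of TNFRSF17, 20.7% were lower, and of the 140 around IRF4, 22.9%. TNFRSF13B (60.1%) and SDC1 (59.7%) are in the GC-rich range, where 74.4% of 117 and 71.8% of 110 such genes were lower. LY9 (52.2%) and TXNDC5 (54.3%) lie between, with 44.2% of 104 and 57.4% of 94. The lower genes of similar GC content had median log2 fold changes between -0.84 and -0.67, and LY9, at -1.29 against -0.84, was the only one of the 6 further from 0 than that median. The part of base composition in these values was not tested.

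**Figure D4:**
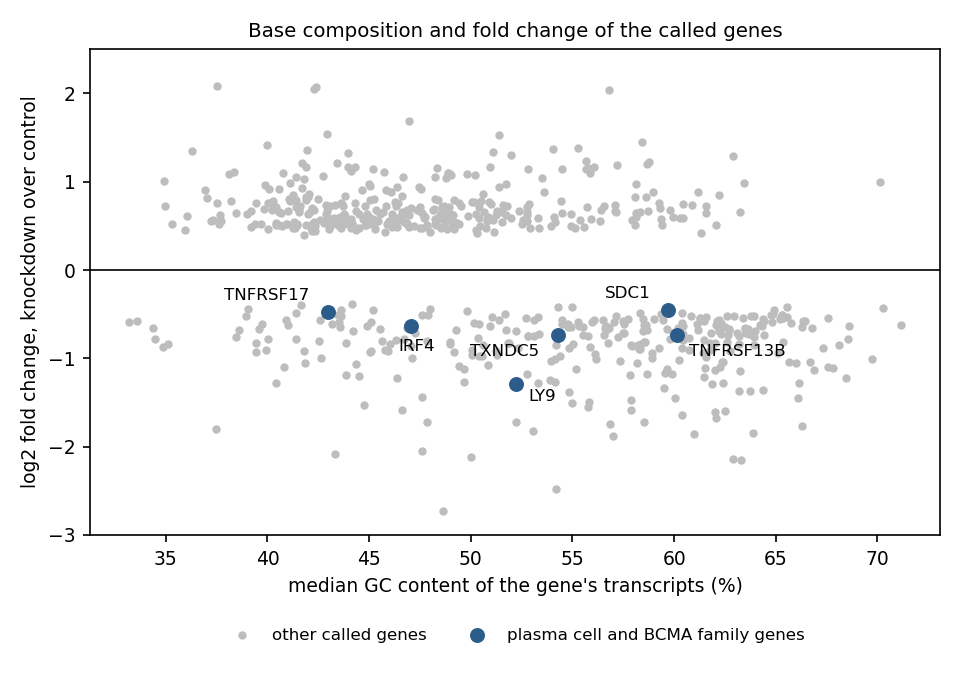
Median GC content of each gene's transcripts (horizontal axis, percent) against the authors' log2 fold change (vertical axis) for 669 called genes, with the 6 genes in blue. TNFRSF17 and IRF4 lie at 43.0% and 47.1%, where most called genes are above 0, and TNFRSF13B (60.1%) and SDC1 (59.7%) lie where most are below.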

How the data were processed

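Per the labels, 2 HRP2 knockdown and 2 control libraries of LP-1 RNA (Trizol) followed BGI protocols. BWA, Bowtie2, RSEM and hg19 appear in the submitters' processing notes. For tool versions, annotation, normalization and the test, nothing was given in the sources used here. The log2 fold changes and the Q values (adjusted p-values) are as deposited by the authors, with maxima of 0.0495 for genes and 0.0497 for transcripts. Planned tests on values per library were not run; the authors' values were described in their place. The remaining deposited files list names, and 19889 mRNA genes with a symbol served as background; 3 of the 684 called genes are outside it.

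Members and the 15 gene lists were chosen with earlier results of these data known. Genes named in the text are the 6 members, HDGFL2 and up to 4 called genes per list by Q value; the other named genes and the transcripts were chosen after their values were seen. GC content was the median over a gene's protein-coding transcripts in GENCODE 29 (677 of 684 genes), and sequence sharing used 31-base words, with 50% or more counted as shared. Functions were tested on simulated data. Python 3.11.15 and pandas 2.3.3 were used. Alternatives were the transcript table, a Q limit of 0.01, a log2 change of 1 or more in size, and omission of sequence-sharing genes.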

Additional observations from a re-analysis of the deposited data

How the results depend on the processing

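No paired analysis was possible because the deposited columns compare the groups and carry no replicate; leaving out a library, DESeq2 and other filters could not be run for the same reason. With a Q value under 0.01, 3 of the 6 genes were left (IRF4, LY9 and TXNDC5), and with a log2 change of 1 or more in size, LY9 alone (1); without genes that share sequence 5 were left. The IRF4 direction reversed in the transcript table for XM_006715090.2 (1.93), and the cause was not tested. The Q limit of 0.01 left 3 of 7 lower surface markers, 0 of 3 BAFF and APRIL genes, 1 of 3 lower TNF receptors, 1 of 3 IRF genes, 1 of 2 lower described IRF4 targets and 1 of 3 secretory genes, while the 3 lower disulfide isomerases kept their count. The fold limit left 2, 0, 0, 1, 0 and 1 in the same order, and 0 lower isomerases. At the Q limit, the IRF gene and the described target that were left were both IRF4 itself, which was picked on this comparison. SUB1 (Q = 0.0158) was lost. LY9 and TXNDC5, picked likewise, were among the surface markers and isomerases that were left. These losses follow from the stricter limits alone, since the values themselves did not move. Depth is unknown, so how far it limits the calls of SDC1 and TNFRSF17, close to the 0.05 limit, was not assessed.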

Other observations

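Some called genes of lymphocyte signalling outside the lists, chosen after their values were seen, went both ways in the authors' deposited table. Lower were IL21R, the receptor of interleukin-21, at -0.94 (Q = 8.05e-05), the kinases FYN at -0.93 (Q = 0.0013) and PTK2B at -0.65 (Q = 0.000317), SELPLG, the selectin ligand PSGL-1, at -0.66 (Q = 0.0134), and LAIR1, an inhibitory collagen receptor, at -0.58 (Q = 0.0329). Higher were 2 genes of B cell receptor signalling, the kinase LYN at 0.66 (Q = 0.0108) and the adaptor PIK3AP1 at 1.06 (Q = 0.0471). Among transcription regulators, BCL11A was at 0.71 (Q = 0.0115), MYB at 0.76 (Q = 0.00168), and ID1 and ID2, inhibitors of E proteins, at 0.97 (Q = 0.0086) and 0.59 (Q = 0.0138). These single genes make no group. On the earlier B cell list 0 of the 20 genes were called, against 3.42% of listed genes, so few calls were expected there. IRF2BP2, a corepressor that binds IRF2, was lower at -0.45 (Q = 0.0425).

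Among the 5 protein-coding genes on each side in RefSeq's gene order, 3 of the 6 genes had a called neighbour, against 31.1% of the 676 called genes with a place in that order. BMP6 is next to TXNDC5 on chromosome 6 and was lower too, at -0.61 (Q = 0.0124). CD48, 3 places from LY9 on chromosome 1, was lower, and beside TNFRSF17 on chromosome 16 GSPT1 was higher at 0.55 (Q = 0.0273) and TXNDC11 lower, all in the authors' deposited table. IRF4, TNFRSF13B and SDC1 had none.

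If the IRF4 gene value were the sum of its called transcripts alone, on one scale, XM_006715090.2 would make up 4.75% of IRF4 RNA in control cells and 28.1% in knockdown cells. Whether those conditions hold was not tested, since the other 3 RefSeq transcripts of IRF4 have no value in the authors' deposited transcript table.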
